A study of Mus musculus with 2 samples.

Results

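The inner root sheath keratins are the intermediate filament proteins of the sheath that surrounds and moulds the growing hair inside its follicle. All array probes named for the 8 genes of this group were taken: Krt25, Krt26, Krt27 and Krt28 of the acidic type I keratins, and Krt71, Krt72, Krt73 and Krt74 of the basic type II keratins. RefSeq lists the first 7 as protein-coding in the mouse, but Krt74 as a transcribed pseudogene, and the array file annotates its probe as a non-coding RNA. They were read by 9 probes, 2 of them for Krt28, of the 55676 probes tested in all, which carried 34820 names. All 9 probes were above background, that is, on each array the scanner software marked their spot as well above background for 1 or both dyes, as it did for 21782 probes in all.

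The RNA came from the epidermis of FVB/N mouse pups at P4.5, and the study asked what SOX11, a transcription factor whose own gene is not detectably expressed in epidermis at this age, does to gene expression when it is switched on there. The SOX11 pups carried K14-rtTA and TRE-Sox11-FLAG, and their control littermates carried K14-rtTA alone. Doxycycline (Dox) was given for 12 h to the pups of both genotypes, so that the K14-rtTA transgene and the Dox were common to all 4 pups. The keratin 14 promoter restricts rtTA to keratin 14 positive cells, mainly the basal layer of the epidermis and the outer root sheath. Whether the transgene was active in the cells of the inner root sheath was not measured. Each of the 2 arrays compared 1 SOX11 pup (Cy5) with its control littermate (Cy3), and the arrays are called pair 1 and pair 2. A log2 ratio above 0 is a brighter signal in the SOX11 pup. Per the labels neither array was dye-swapped, although the methods describe a colour swap, so that what the dye and what the genotype did to a probe cannot be told apart.

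Keratin filaments are built from pairs of 1 type I and 1 type II chain. In the follicle, the inner root sheath consists of the Henle layer, the Huxley layer and a cuticle, and its cells fill with their own keratins and with trichohyalin, which peptidylarginine deiminases and transglutaminases modify and crosslink as the sheath hardens. Mutations of Krt71 in the mouse, and of KRT25 or KRT74 in humans, give a wavy or woolly coat or hair. As the samples were bulk epidermal RNA, fewer inner root sheath cells and less keratin RNA per cell cannot be told apart.

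Promoter sequence was held for 7 of the 8 genes (not Krt74) in a table of RefSeq promoters on GRCm38.p6, and the 250 bases before each start site were searched on both strands for 4 short motifs. The sequence TATAAA, the core of a TATA box, was found in 7 of 7, against 12.4% of the 32851 promoters in the table. In Krt25, Krt26, Krt28 and Krt73 its first base lay 30 bases before the start site, in Krt71 40 bases and in Krt27 15 bases, and in Krt72 the only match was on the reverse strand at 203 bases. The sequence AGATAA, which GATA factors can bind, was found in Krt25, Krt27, Krt71 and Krt73, 4 of 7, against 9.99% of all promoters. It lay on the forward strand at 194, 183, 225 and 182 bases before the start site. The SOX motif AACAAAG was found in Krt25 alone (1 of 7, against 5.03%), and the SOX motif AACAAT in Krt73 alone (1 of 7, against 9.42%), once on each strand. The 4 promoters with AGATAA are printed from 5′ to 3′ on the strand of the gene, since they hold every SOX and GATA match among the members. Capitals mark the matches to the 4 motifs, with ATTGTT as the reverse complement of AACAAT.
Krt25, chr11:99322952-99323201, minus strand: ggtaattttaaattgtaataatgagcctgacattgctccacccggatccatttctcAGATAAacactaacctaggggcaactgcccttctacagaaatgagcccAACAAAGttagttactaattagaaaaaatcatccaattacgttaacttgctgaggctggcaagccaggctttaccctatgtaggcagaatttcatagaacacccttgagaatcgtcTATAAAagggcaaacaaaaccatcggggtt
Krt27, chr11:99351119-99351368, minus strand: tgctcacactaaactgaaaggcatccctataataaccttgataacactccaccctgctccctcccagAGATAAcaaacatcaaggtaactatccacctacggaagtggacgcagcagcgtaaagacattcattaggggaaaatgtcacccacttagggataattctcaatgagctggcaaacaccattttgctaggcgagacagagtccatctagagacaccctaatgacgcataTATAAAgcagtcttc
Krt71, chr15:101743098-101743347, minus strand: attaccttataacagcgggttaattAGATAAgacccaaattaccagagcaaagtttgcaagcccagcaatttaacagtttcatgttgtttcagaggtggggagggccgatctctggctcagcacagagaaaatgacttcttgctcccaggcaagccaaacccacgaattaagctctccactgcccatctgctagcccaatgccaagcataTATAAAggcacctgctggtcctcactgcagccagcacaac
Krt73, chr15:101802361-101802610, minus strand: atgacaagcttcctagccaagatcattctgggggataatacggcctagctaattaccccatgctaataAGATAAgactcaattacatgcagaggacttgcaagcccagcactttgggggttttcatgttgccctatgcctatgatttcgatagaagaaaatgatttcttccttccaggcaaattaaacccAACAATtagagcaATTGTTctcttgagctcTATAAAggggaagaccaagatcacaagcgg
These matches are a description of the letters in the window and not of binding. The arrays read the transcripts through probes of 60 bases, of which a Krt28 probe (chr11:99234074-99234133 on mm9) and the Krt72 probe (chr15:101606991-101607050 on mm9) are shown as examples from both families.
Krt28 probe: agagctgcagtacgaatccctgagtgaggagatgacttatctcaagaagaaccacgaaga
Krt72 probe: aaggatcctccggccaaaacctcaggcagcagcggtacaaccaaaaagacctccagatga

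The epidermal identity of the samples was clear, as the 5 keratinocyte markers Krt5, Krt14, Krt1, Krt10 and Lor were above background, with a summed log2 level of 18.8 to 19.2 in the 4 pups. The 2 probes for Sox11 were not well above background in any channel, so they check neither the labels nor the induction. The SD between spots was taken over 234 above-background probes measured by 5 or more spots. Its median was 0.0919 on array 1 and 0.0896 on array 2 (log2 ratio). Every inner root sheath probe was a single spot, none was saturated, and none carried an outlier flag on either array. For the keratins of the inner root sheath and of the hair shaft, the control pup of pair 1 was the lowest of the 4 pups, so the pairs are given separately throughout, and a value without pair 1 is the value of pair 2.

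The inner root sheath keratins were higher in the SOX11 pup than in its control in pair 1 and differed little, mostly in the other direction, in pair 2. The median log2 ratio of the 9 probes was 1.67 in pair 1, a 3.19-fold difference, and -0.36 in pair 2. All 9 probes were above 0 in pair 1, and 8 of them were past 1, a size that 1.9% of all probes reached upward on that array. In pair 2, no inner root sheath probe was past 1 in either direction, where 1.11% of all probes were past 1 upward and 0.451% past -1 downward. There, 6 of the 9 probes were below 0 after loess, which made them higher in pair 1 and lower in pair 2, as 17.5% of all probes were, but 0 of 9 were below 0 when each array was centred on its median in place of loess.

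No member passed the test over both pairs. In the limma fit across all probes, 0 of the 9 inner root sheath probes reached an adjusted p under 0.05, against 4.25% of all probes (2.9% higher and 1.35% lower), and adjusted p-values ran from 0.0632 to 0.485. At an unadjusted p under 0.05 there were 2 of 9, those of Krt26 and Krt72, against 21% of all probes. With the size threshold of the methods added, a mean log2 ratio past 1.5, 0.451% of all probes were called and none of the 9. The count rested on the normalization: with median centring, 8 of the 9 probes, all but Krt74, reached adjusted p-values of 0.000881 to 0.0152 in the same limma fit, in the higher direction. The share of all probes that passed at this setting is not given here, for this count or for those of other lists below. At the same setting 6 of 6 melanocyte, 4 of 5 keratinocyte and 3 of 6 fibroblast markers also passed higher. So did 2 of 5 sebaceous gland, 1 of 5 muscle, 1 of 3 leukocyte and 0 of 3 endothelium markers. Of the dermal papilla markers 3 of 6 passed lower and 0 higher. Whether the 8 of 9 sets the members apart was not tested, and without the share of all probes it cannot be read as particular to them. Median centring also moved the median of all above-background probes to 0.47 in pair 1 and 0.55 in pair 2, from 0.04 and 0.03 after loess. Against that shift the inner root sheath medians of 2.37 and 0.43 lay above it in pair 1 and below it in pair 2.

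**Figure D1:**
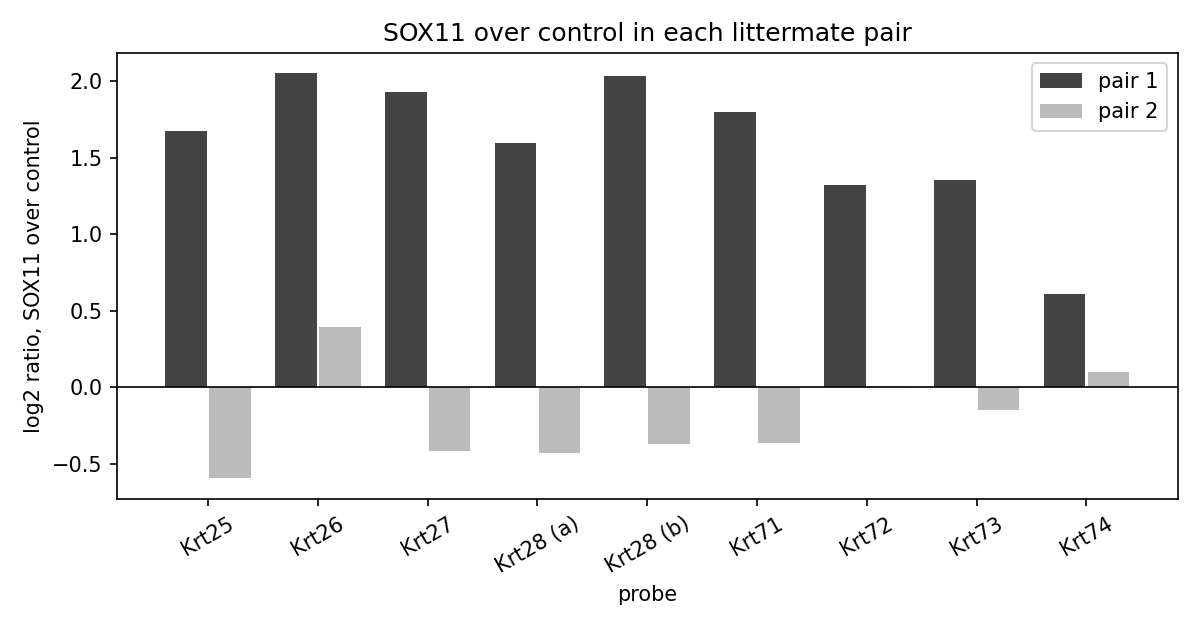
Log2 ratio of the SOX11 pup over its control littermate (vertical axis) for each of the 9 inner root sheath keratin probes (horizontal axis), with dark bars for pair 1 and light bars for pair 2. Each bar is 1 spot on 1 array, so there are no error bars; Krt28 (a) and (b) are its 2 probes. The 9 dark bars lie between 0.61 and 2.05, and the light bars between -0.60 and 0.40, where the 6 below 0 are above 0 with median centring.

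The members were then followed through the 4 pups. For this, each channel was given a normalized log2 level, which compares pups for the same probe but not one probe with another, since probes bind with different strength. The control pup of pair 1 had the lowest level of the 4 pups for 9 of 9 probes, although for Krt74 that channel was not well above background. The share of all above-background probes with this pup lowest is not given here, for this count or for the same counts in other lists. The level of the control pup of pair 2 was higher than that of the control pup of pair 1 by a median of 2.24 (0.59 to 2.72), a 4.73-fold difference. The SOX11 pups differed by a median of only 0.18 (0.08 to 0.59), also higher in pair 2. Of all above-background probes, 2.63% were higher by more than 1 in the control pup of pair 2 than in that of pair 1, and 0.432% in the SOX11 pup of pair 2. For the inner root sheath probes the counts were 8 of 9 and 0 of 9. As 1 array holds 1 control pup, differences between the animals, their RNA preparations, their dye labelling and the arrays cannot be told apart.

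**Figure D2:**
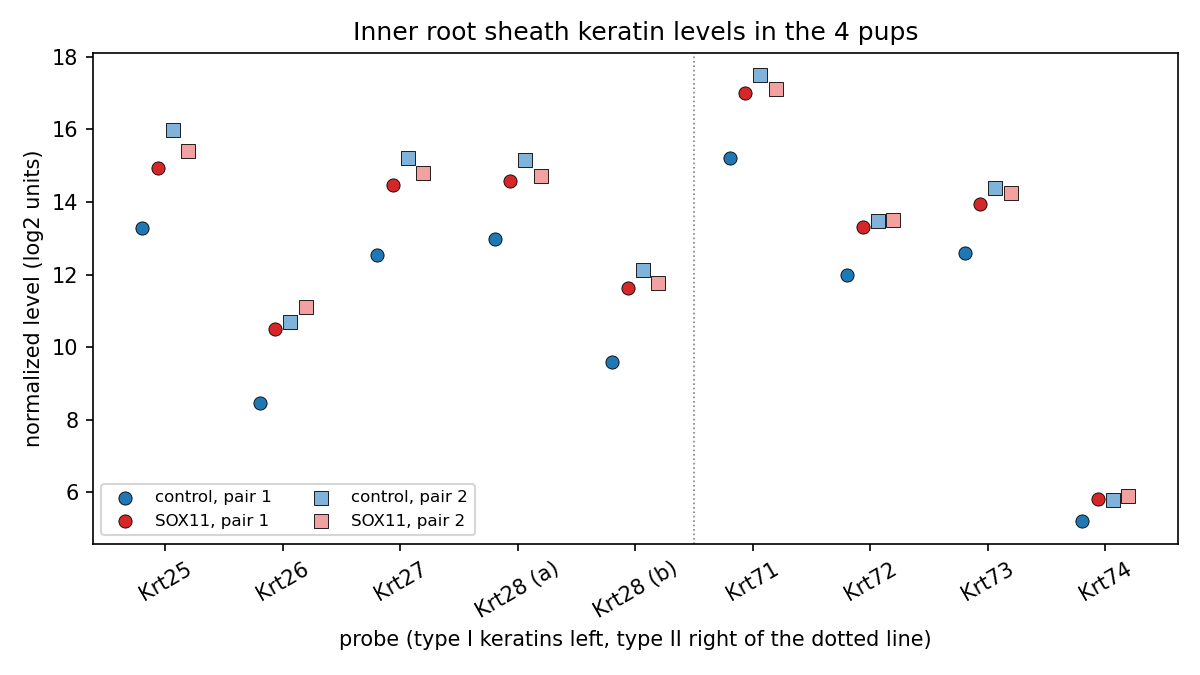
Normalized log2 level (vertical axis) of each inner root sheath keratin probe (horizontal axis, type I left and type II right of the dotted line) in the 4 pups. Blue marks control pups and red SOX11 pups, circles pair 1 and squares pair 2. For every probe the dark blue circle, the control pup of pair 1, is the lowest point, and for 8 of the 9 probes it lies at least 1.32 below the next.

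Among the type I keratins, Krt25 (probe at chr11:99177867-99178575 on mm9, a span of 709 bases that crosses an intron) is the member with known woolly hair mutations. Its level was 13.27 in the control and 14.95 in the SOX11 pup of pair 1, and 15.99 in the control and 15.40 in the SOX11 pup of pair 2. The control pups were thus the lowest and the highest of the 4, and the SOX11 pups lay between them. The log2 ratios were 1.67 and -0.60 and averaged 0.54 ± 1.60 (SD, n = 2 arrays; limma adjusted p = 0.485). The control pups differed 6.57-fold for Krt25.

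Krt27 (chr11:99207158-99207828, a span of 671 bases) and Krt28 (chr11:99226329-99226388 and chr11:99234074-99234133) are, like Krt25, known from all layers of the sheath. Krt27 levels were 12.55 and 14.48 in the control and SOX11 pups of pair 1, and 15.22 and 14.80 in those of pair 2. For Krt28 the first probe gave 12.99 and 14.59 in pair 1, and 15.15 and 14.72 in pair 2. Its second probe gave 9.60 and 11.63 in pair 1, and 12.14 and 11.77 in pair 2. For all 3 probes the control of pair 1 was lowest and the control of pair 2 highest, as for Krt25. The Krt27 ratios were 1.93 and -0.42, which averaged 0.76 ± 1.66 (SD, n = 2; limma adjusted p = 0.336). The 2 Krt28 probes had ratios of 1.60 and 2.03 in pair 1, and of -0.43 and -0.37 in pair 2. They gave the same direction in each pair although they lie in different parts of the gene.

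Krt26 (chr11:99190372-99190431), a keratin of the sheath cuticle, was the only type I member above 0 in both pairs after loess, whereas with median centring all members were. Its levels were 8.46 in the control and 10.51 in the SOX11 pup of pair 1, and 10.70 in the control and 11.10 in the SOX11 pup of pair 2. Here the SOX11 pup of pair 2 was highest, and the control pup of pair 1 was again lowest, with the other control 4.73-fold higher. The log2 ratios were 2.05 and 0.40 and averaged 1.22 ± 1.17 (SD, n = 2; limma adjusted p = 0.0632), the lowest adjusted p of the group.

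Among the type II keratins, Krt71 (chr15:101564426-101564485) is found in all layers of the sheath. Its levels were 15.21 and 17.01 in the control and SOX11 pups of pair 1, and 17.49 and 17.13 in those of pair 2. The order of the pups was that of Krt25, Krt27 and Krt28. The log2 ratios were 1.80 and -0.36 and averaged 0.72 ± 1.53 (SD, n = 2; limma adjusted p = 0.327).

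Krt72 (chr15:101606991-101607050) and Krt73 (chr15:101623743-101623802), keratins of the cuticle, varied less. Krt72 levels were 11.99 and 13.32 in the control and SOX11 pups of pair 1, and 13.49 and 13.50 in those of pair 2. Krt73 levels were 12.58 and 13.94 in pair 1, and 14.39 and 14.24 in pair 2. Of the 4 pups, 3 lay within 0.18 of each other for Krt72 and over a range of 0.45 for Krt73, and the control of pair 1 lay below them by 1.32 and 1.36. The log2 ratios of Krt72 were 1.32 and 0.01 (limma adjusted p = 0.190) and those of Krt73 were 1.36 and -0.15 (limma adjusted p = 0.275).

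Krt74 (chr15:101584822-101584881) encodes a keratin of the Huxley layer in humans, but a non-coding transcript is annotated for this probe in the mouse, so its values are given as those of that transcript. It was the dim member. Its control channel in pair 1 was not well above background, so a control value was measured on 1 of the 2 arrays. Levels were 5.20 and 5.81 in the control and SOX11 pups of pair 1, and 5.79 and 5.89 in those of pair 2. The log2 ratios were 0.61 and 0.10 and averaged 0.35 ± 0.36 (SD, n = 2; limma adjusted p = 0.274). This mean depended on the background correction, at 0.19 with an offset of 50 and 1.23 with the processed signals of the scanner software, where pair 1 gave 2.24 and pair 2 gave 0.21. Without Krt74, the group medians were 1.74 in pair 1 and -0.37 in pair 2.

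The log2 ratio of pair 1 minus that of pair 2 had a median of 2.03 over the 9 probes (0.51 to 2.40). The spot-to-spot SD was at most 0.32 for any above-background probe measured by 5 or more spots. It covers the technical error within an array and not the variation between pups. A gap past 1 in that direction was seen for 8 of 9 inner root sheath probes and for 2.04% of the above-background probes (1.07% of all). For Krt27, 0.344% of above-background probes had a gap at least as large, and for Krt74 7.03%. With 1 array a pair there was no replicate error for this gap, and it was not tested. The 5 probes of the genes known from all layers, Krt25, Krt27, Krt28 and Krt71, had gaps of 2.03 to 2.40, and those of Krt26, Krt72, Krt73 and Krt74 had gaps of 0.51 to 1.65. These 2 ranges did not overlap, but the split by layer was made after the values were seen and is given without a test. The type I probes had medians of 1.93 in pair 1 and -0.42 in pair 2, and the type II probes 1.34 and -0.07.

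The keratin genes next to the members on the chromosome ranged from values near those of members to the opposite direction. The type I members lie within 56.3 kb of chromosome 11 and the type II members within 59.4 kb of chromosome 15, and 9 and 11 other probes lie within 100 kb of the 2 groups. On chromosome 11, the 2 probes of Krt10, a keratin of differentiating epidermis, gave log2 ratios of 0.24 and 0.23 in pair 1, and 1.09 and 0.94 in pair 2. Their levels in the control pups were lower in pair 2 than in pair 1, by -0.78 and -0.65, opposite to Krt28 next to them. On chromosome 15, Krt5, the basal partner of Krt14, had log2 ratios of -0.25 and -0.30 in pair 1, and -0.62 and -0.65 in pair 2. Krt6a lay near Krt71 on the chromosome and was close in value to Krt26, at 2.22 and 0.53, and rose in the test (limma adjusted p = 0.0455, and 0.000584 with median centring but 0.358 with the processed signals of the scanner software). The 2 probes of Krt6b disagreed, with ratios of -0.57 and 1.75 in pair 1, and 1.39 and 0.40 in pair 2, the second of them also close to Krt26. The brighter Krt2 probe, at 0.68 and 0.17, was close to Krt74. Krt6a and Krt6b are near-identical genes whose transcripts may bind the same probes.

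**Figure D3:**
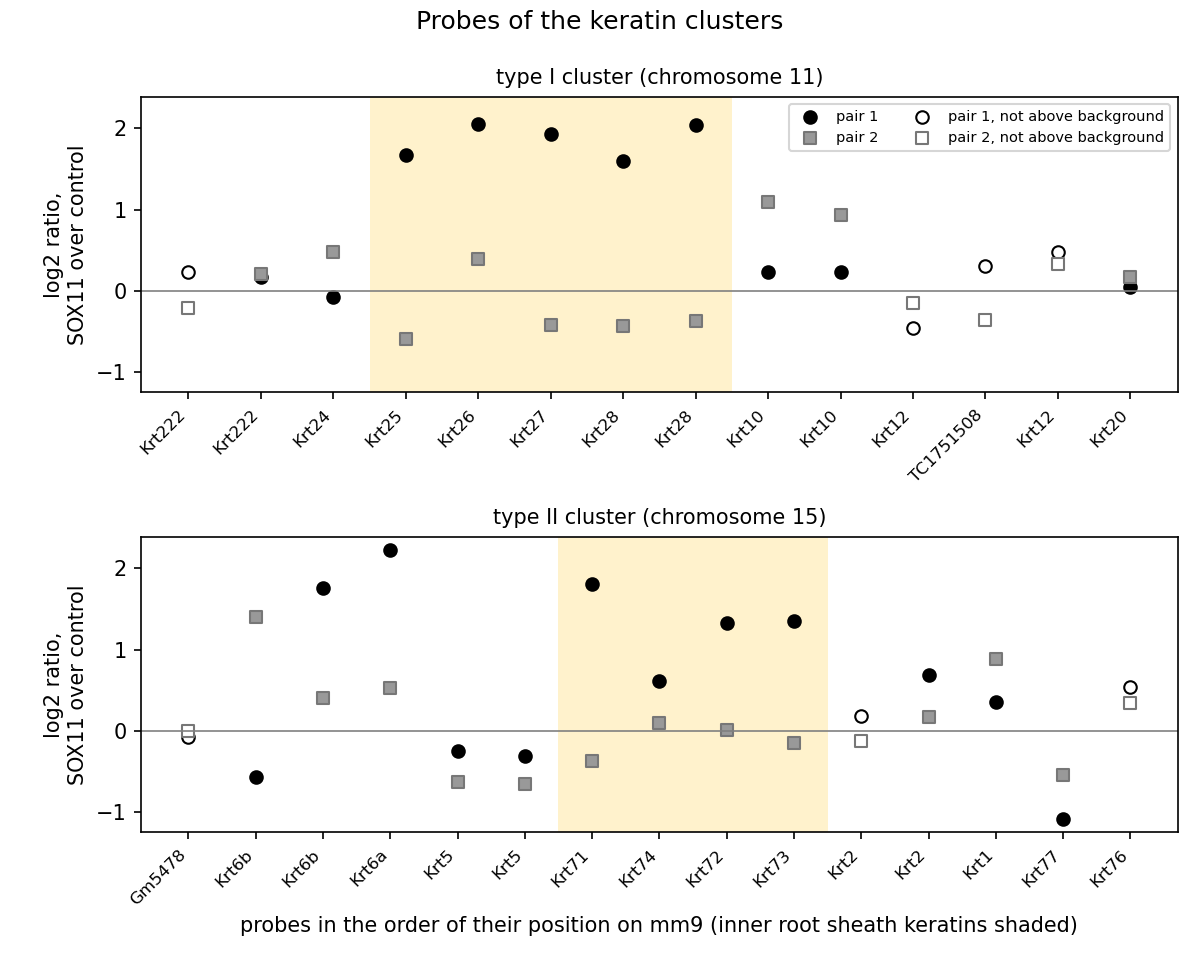
Log2 ratio of the SOX11 pup over its control (vertical axes) for every probe within 100 kb of the inner root sheath keratins, in chromosomal order and evenly spaced (horizontal axes), for the type I genes (top) and the type II genes (bottom). Black circles are pair 1, grey squares pair 2, open symbols probes not above background, and shading marks the members. The shaded probes are higher in pair 1 than in pair 2 on both chromosomes. So are unshaded probes such as those of Krt6a, Krt5 and Krt2 and a Krt6b probe, whereas Krt10, Krt1, Krt77 and the other Krt6b probe are higher in pair 2.

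Partners and regulators of the inner root sheath, transcription factors among them, were measured by 15 genes, all above background. Their medians were 0.59 in pair 1 and -0.24 in pair 2, against 0.01 and 0.01 over all probes, and median centring turned the second above 0, to 0.50. The largest ratios of pair 1 were those of Padi3 (1.81 and -0.28 in pairs 1 and 2), a peptidylarginine deiminase, Tchh (1.61 and -0.27), trichohyalin, and Msx2 (1.54 and -0.03), a homeobox factor of the hair matrix. None of these 3 passed the test after loess, with limma adjusted p-values of 0.284, 0.305 and 0.194, whereas with median centring all 3 passed, at 0.00721, 0.00530 and 0.00378. Tchh had levels of 13.13 and 14.75 in the control and SOX11 pups of pair 1, and 15.22 and 14.94 in those of pair 2, the order seen for Krt71.

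Of the 15 partner and regulator genes, 1 rose and 1 fell at an adjusted p under 0.05, against 12 higher and 0 lower with median centring. Lpar6, a lysophosphatidic acid receptor mutated in woolly hair, rose with log2 ratios of 1.21 and 0.67 (limma adjusted p = 0.0192, and 0.000125 with median centring). It is named here because it passed, as the rule for naming genes did not reach it. Gata3, a transcription factor needed for inner root sheath differentiation, fell with ratios of -0.78 and -0.75 (limma adjusted p = 0.0241), but not with median centring, where its mean was -0.10 (adjusted p = 0.642). Neither passed with the processed signals, at adjusted p-values of 0.284 for Lpar6 and 0.244 for Gata3. The other low ratios of pair 1 were those of Tgm3 (-0.47 and -0.42), the transglutaminase that crosslinks trichohyalin, and Dsc1 (-0.19 and -0.21), a desmosomal cadherin. Gata3, Tgm3 and Dsc1 thus had nearly equal ratios in both pairs, whereas those of the member probes differed by 0.51 to 2.40. The partners Padi3 (1.81 and -0.28) and Tchh (1.61 and -0.27) also differed between the pairs.

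The keratins of the hair shaft, made in the centre of the same follicles, showed a wider gap. Of 16 genes listed 15 were measured, all above background, with medians of 2.12 in pair 1 and -0.30 in pair 2 (0.44 in pair 2 with median centring). The control pup of pair 1 was the lowest of the 4 pups for 15 of 15, and the control pups differed by a median of 3.03 (1.30 to 3.47), against 2.24 for the inner root sheath probes. The highest ratios of pair 1 were those of Krt81 (2.46 and -0.46 in pairs 1 and 2), Krt33a (2.44 and -0.10) and Krt83 (2.40 and -0.55). The lowest were those of Krt39 (0.49 and -0.30), Krt35 (1.42 and -0.08) and Krt84 (1.43 and -0.30). Krt39 was dim, with levels of 5.62 and 6.11 in pair 1. Its mean log2 ratio was 0.09 after loess, 0.03 with an offset of 50 and 0.62 with the processed signals. No gene of this list passed an adjusted p of 0.05 in limma after loess (4 had an unadjusted p under 0.05), whereas 14 of 15, all but Krt39, passed in the higher direction with median centring (limma adjusted p of 0.00219 to 0.0216). The keratin-associated proteins of the shaft had the same lowest pup. Of 52 measured, 48 were above background, with medians of 2.16 and -0.32 in the 2 pairs, and the control pup of pair 1 was lowest for 48 of 48. In limma 0 of the 52 passed after loess (22 at an unadjusted p under 0.05), and 46 passed with median centring. Among the 48, the lowest ratios of pair 1 were 0.17 for Krtap9-5, 0.45 for the dim Krtap31-1 (levels of 5.83 and 6.27) and 0.87 for Krtap3-2. The highest were 2.72 for Krtap6-1, 2.80 for Krtap19-5 and 2.83 for Krtap20-2. Many of these genes are near-identical copies, so their probes are not independent readings.

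The layers outside the inner root sheath were mixed. By brightest probe, the control pup of pair 1 was lowest of the 4 for 4 of 6 keratins. Krt6b is among them, but for its other probe this pup was the highest, at 10.78. The 6 keratins of the companion layer and outer root sheath had medians of 1.31 and 0.18 in the 2 pairs. Over all their probes the medians were 0.87 and 0.40. In the test 2 of 6 passed after loess against 6 of 6 with median centring. Krt75, the companion layer keratin, had ratios of 1.91 and -0.18 and its control pups differed by 2.94, near the hair shaft values. Krt6a (above) and Krt16, both stress keratins of the outer root sheath, were higher in both pairs, and Krt16 rose with 0.87 and 0.64 (limma adjusted p = 0.0283, and 0.000156 with median centring, but 0.248 with the processed signals). Krt6b, Krt17 and Krt79 had ratios of 1.75, 0.53 and 0.12 in pair 1, and of 0.40, -0.15 and -0.05 in pair 2. The control pups differed by less than 1 for Krt16, Krt17 and Krt79.

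The 9 keratins of the interfollicular epidermis had medians of -0.13 in pair 1 (0.65 with median centring) and 0.16 in pair 2, and the control pup of pair 1 was lowest of the 4 for 2 of 9, Krt2 and Krt80. Their control pups differed by a median of -0.24 (-1.27 to 0.31), opposite in sign to the inner root sheath keratins. Krt15, a keratin of basal and follicle stem cells, fell with log2 ratios of -1.08 and -0.99 (limma adjusted p = 0.00621), and Krt77 fell with -1.08 and -0.54 (limma adjusted p = 0.0353). With median centring their means were -0.27 and -0.14 and neither passed, at adjusted p-values of 0.216 and 0.573, and with the processed signals they did not pass either, at 0.244 and 0.292. Of the other keratins of this list, 6 passed in the higher direction with median centring. The highest ratios of pair 1 were those of Krt2 (0.68 and 0.17), Krt1 (0.36 and 0.89) and Krt80 (0.34 and 0.16), and Krt78 had -0.13 and 0.22. Krt2 was dim, with levels of 5.45 to 6.14. Its mean log2 ratio was 0.43 after loess, 0.25 with an offset of 50 and 1.24 with the processed signals.

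**Figure D4:**
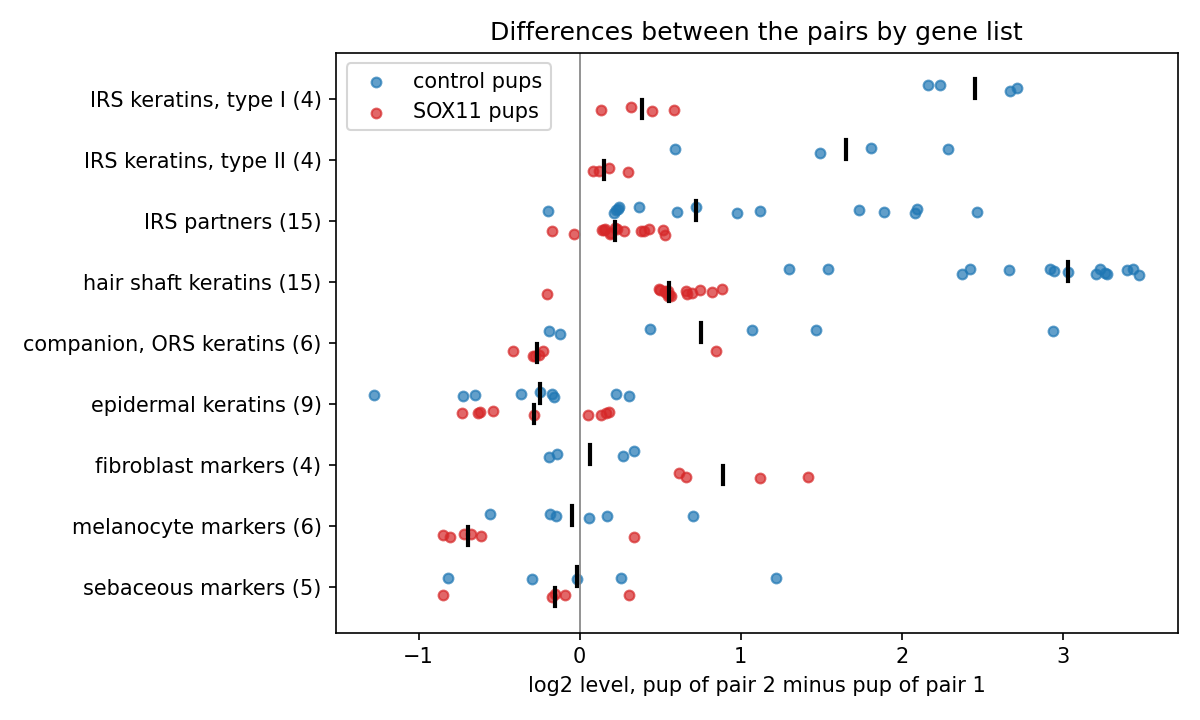
Difference in normalized log2 level between the pairs (horizontal axis, pup of pair 2 minus pup of pair 1) for the above-background genes of each list (rows, number of genes in brackets). Blue points compare the 2 control pups, red points the 2 SOX11 pups, and black bars are medians; each point is 1 gene read by its brightest probe. The blue points of the inner root sheath and hair shaft keratins lie above 0.5, those of the epidermal keratins lie on both sides of 0, and most red points lie within 1 of 0.

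Markers of other cells were examined beside the inner root sheath values. The summed log2 level of 6 melanocyte markers, all above background, was 13.25 and 13.65 in the control and SOX11 pups of pair 1, and 12.91 and 12.87 in those of pair 2. For 5 sebaceous gland markers, all above background, the sums ran from 13.1 to 13.8. Of 6 dermal fibroblast markers 4 were above background, with sums of 9.70 to 10.6, and these 4 went in different directions. Dcn had log2 ratios of -0.96 and -0.62 in pairs 1 and 2 (limma adjusted p = 0.0276, but 0.290 with median centring). Col1a1, Col1a2 and Col3a1 had ratios of -0.03, -0.17 and -0.17 in pair 1, and of 0.77, 1.14 and 0.92 in pair 2. Of 6 dermal papilla markers only Lepr was above background, as was 1 of 5 for skeletal muscle and 2 of 3 for endothelium. The summed level of 3 leukocyte markers was 10.92 and 10.61 in pair 1, and 9.33 and 9.28 in pair 2. The largest part came from Cd207 in pair 1 and from Cd3e, at 8.23 and 8.22, in pair 2. Ptprc was 7.12 and 6.49 in pair 1, and 6.57 and 6.66 in pair 2. In none of these lists was the control pup of pair 1 the lowest of the 4 pups by summed level, which follows mainly the brightest probes. By above-background gene it was lowest for 2 of 5 sebaceous, 1 of 6 melanocyte, 1 of 2 endothelium and 1 of 1 muscle markers. It was lowest for 0 of the fibroblast, dermal papilla and leukocyte markers. The dim sebaceous marker Mc5r had levels of 5.11 and 5.91 in pair 1, and 6.33 and 6.21 in pair 2. Cd207, the marker of Langerhans cells, differed by -2.46 between the control pups and by -2.28 between the SOX11 pups. The part of these cells in the inner root sheath values was not tested.

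The genes whose ratios lay nearest to those of the inner root sheath keratins were found by their distance from the median of the member probes, 1.67 in pair 1 and -0.36 in pair 2, among 12999 genes with a probe above background. The 10 nearest were Crnn, Gprc5d, Apod, Actbl2, Krt32, Tchh, Nxpe3, Fabp4, Cryba4 and Slc6a13, at log2 distances of 0.056 to 0.131 over the 2 arrays. Crnn, cornulin, had ratios of 1.63 and -0.40, and Gprc5d, an orphan receptor, 1.73 and -0.38. For Gprc5d the levels were 11.61 and 13.34 in the control and SOX11 pups of pair 1, and 14.47 and 14.10 in those of pair 2. Krt32 of the hair shaft and Tchh of the sheath were the only genes among the 10 that the other lists held.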

How the data were processed

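Epidermal RNA of 2 SOX11 pups and 2 control littermates was measured on 2 two-colour Agilent arrays. Per the file headers, Agilent Feature Extraction 10.7.3.1 made the scanner files, with probe positions on mm9. The intensity values deposited by the authors are the unnormalized brightness of each spot and its background. The processed signals, intensity values that the software corrected and dye-normalized per the file headers, served as an alternative. The series table holds log2 ratios that the authors deposited. It was rebuilt from median spot brightness with normexp, an offset of 16 and loess, to within 5.48e-05 and 0.000462 on the 2 arrays over 55681 probes, with medians of 0.00977 and 0.00466, so its scale and direction are known. The scanner software's own log ratio column was not used.

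The analysis used limma 3.58.1 in R 4.3.3. Spot brightness (mean over pixels) was corrected by normexp (offset 16) and normalized by loess. Control spots and outlier-flagged spots (194 and 186) were left out, and spots of a probe were averaged. An intercept-only fit with eBayes and Benjamini-Hochberg adjustment ran over 55676 probes (prior 8.14 degrees of freedom, prior SD 0.223), and calls needed an adjusted p under 0.05 and a mean log2 ratio past 1.5, as in the methods. It gave 203 higher and 48 lower probes. With 2 arrays the smallest p of an exact sign-flip test is 0.5, so calls rest on the prior, and the number of arrays limits the precision. Levels of single pups came from the channels after loess and Aquantile scaling, and are open to dye bias. The scripts were tested on simulated data. The methods also name a ComBat step for dye, which the rebuilt table did not need.

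The littermate pair is the unit of replication. Genes outside the group are the 3 highest and 3 lowest of pair 1 in each list, by brightest probe, the 10 nearest genes, probes within 100 kb, and others named as exceptions. The members and lists were chosen with earlier results of these data known. Alternatives were an offset of 50, median brightness, median centring, processed signals, above-background probes only, the series table, flagged spots kept, a linear threshold, and leaving out a pair. After the data were seen, control spots at weight 0 in loess and the same scalings for pup levels were added.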

Additional observations from a re-analysis of the deposited data

How the results depend on the processing

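The inner root sheath keratin ratios depended on pair 1 and on the choice of loess. Without replicate 1 the mean log2 ratio turned below 0 for Krt25 (-0.60), Krt27 (-0.42), Krt28 (-0.43 and -0.37), Krt71 (-0.36) and Krt73 (-0.15), and without replicate 2 it was 1.67, 1.93, 1.60 and 2.03, 1.80 and 1.36 for these. With median centring in place of loess, 8 inner root sheath probes passed an adjusted p of 0.05, all higher. The medians of the inner root sheath probes were then 2.37 in pair 1 and 0.43 in pair 2. Over all genes, 746 probes were called higher and 10 lower with the size threshold of 1.5 added. The number of probes called lower was 31 with an offset of 50. The scanner software's processed signals gave 0 calls in either direction in limma, where 936 probes were past 1.5 at an unadjusted p under 0.05, and 0 inner root sheath probes passed at an unadjusted p under 0.05. With the size threshold read as a linear 1.5-fold, 1614 probes were called higher and 754 lower. The cause of these differences was not tested. The gap between the pairs was 1.87 to 2.04 and the difference between the control pups 2.15 to 2.27 under every scaling run. Each ratio is taken within a littermate pair, so the fit was paired throughout. Signals near background limit the Krt74 values.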
